A study of Homo sapiens with 6 samples.

Results

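The miRNAs described here are the mature products of the miR-125, miR-99 and miR-100 hairpins that lie in clusters with let-7 genes on chromosomes 11, 19 and 21. They were chosen by name from the table of miRNA counts, and all 6 names looked for were present (hsa-miR-125a-5p, hsa-miR-125a-3p, hsa-miR-125b-5p, hsa-miR-99a-5p, hsa-miR-99b-5p and hsa-miR-100-5p, where hsa stands for human), out of 471 names in all. The counts came from small RNA sequencing of small extracellular vesicles (EVs) purified from the medium of Cal27 spheroids on day 14. Cal27 is a human oral squamous cell carcinoma line. The spheroids were grown by media overlay on growth factor reduced Matrigel, at 3 mg/mL for the soft group (EV_soft) and 12 mg/mL for the stiff group (EV_stiff), with 3 libraries in each group. Both groups used the same cell line, the same culture time, serum depleted of EVs and the same electrical trapping method of EV purification. Matrigel concentration was the only difference that the labels name, so stiffness and the amount of matrix cannot be told apart. The labels call the 3 libraries of a group biological replicates, and the study describes its EV replicates as independent isolations from separate culture repeats. The comparison asks whether the stiffness of the matrix around a tumour spheroid goes with a different miRNA content of the EVs it releases.

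A miRNA is cut from a hairpin precursor, and either arm of the hairpin, 5p or 3p, can be loaded onto an Argonaute protein. The bases that follow the first one form the seed, which pairs with target mRNAs and largely sets which mRNAs are repressed. The miR-125 family is the vertebrate counterpart of lin-4, the first miRNA described in worms, and its known targets include the RNA-binding protein LIN28, while miR-125a is also known to target the receptors ERBB2 and ERBB3. The miR-99 and miR-100 family is known to target MTOR and IGF1R, which drive growth, and members of both families are often reduced in squamous cell carcinomas. Members of one cluster are made from a shared transcript, and their levels need not be equal, since each hairpin is processed and each product decays on its own.

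The mature sequences are shown because they divide the 6 members into 3 seeds. They are given 5′ to 3′ from RefSeq (GRCh38.p14), with the seed, bases 2 to 8, in capitals.
miR-125a-5p: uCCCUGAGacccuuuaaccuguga
miR-125b-5p: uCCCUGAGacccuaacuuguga
miR-99a-5p: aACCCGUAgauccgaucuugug
miR-99b-5p: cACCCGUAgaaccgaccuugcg
miR-100-5p: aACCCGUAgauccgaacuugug
miR-125a-3p: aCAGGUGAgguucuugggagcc
The seed of miR-125a-5p and miR-125b-5p was shared with only 1 other RefSeq mature human miRNA, miR-4319, which has no row in the count table. These 2 members have the same first 13 bases and the same last 5 bases, and differ between them and in length (24 and 22 bases). The other 3 members with a common seed, miR-99a-5p, miR-99b-5p and miR-100-5p, were the only RefSeq mature human miRNAs with it. Counted from 1 at the 5′ end, miR-99a-5p and miR-100-5p differ by a single substitution, U16A, so that the counting could have divided reads between them. Compared with miR-99a-5p, miR-99b-5p differs at 4 positions (A1C, U11A, U16C and U21C).

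On chromosome 19 the 3 hairpins of the cluster span 0.728 kb in the SPACA6 gene, a protein-coding gene, with the order MIR99B, MIRLET7E and MIR125A. MIR99B (chr19:51692612-51692681, plus strand) and MIRLET7E (chr19:51692786-51692864) lie in an intron of SPACA6, and MIR125A (chr19:51693254-51693339) overlaps one of its exons, in GENCODE 44 on GRCh38. All 3 also overlap an exon of SPACA6-AS1, a lncRNA on the opposite strand. The other clusters are longer. MIR100 (chr11:122152229-122152308, minus strand), MIRLET7A2 and MIR125B1 (chr11:122099757-122099844) lie in introns of the lncRNA MIR100HG and span 52.6 kb, and MIR99A (chr21:16539089-16539169, plus strand), MIRLET7C and MIR125B2 (chr21:16590237-16590325) lie in the lncRNA MIR99AHG and span 51.2 kb. MIR99A is in an intron of MIR99AHG, while MIRLET7C and MIR125B2 overlap its exons. Both MIR125B1 and MIR125B2 give the same mature miR-125b-5p, whose reads cannot be assigned to a chromosome. The hairpin of miR-125a is shown because the read ratio of its arms did not overlap between the groups. Its sequence in RefSeq is given 5′ to 3′ with the 5p arm and then the 3p arm in capitals.
MIR125A: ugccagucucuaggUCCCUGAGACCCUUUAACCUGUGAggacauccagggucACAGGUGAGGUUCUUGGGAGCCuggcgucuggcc

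**Figure D1:**
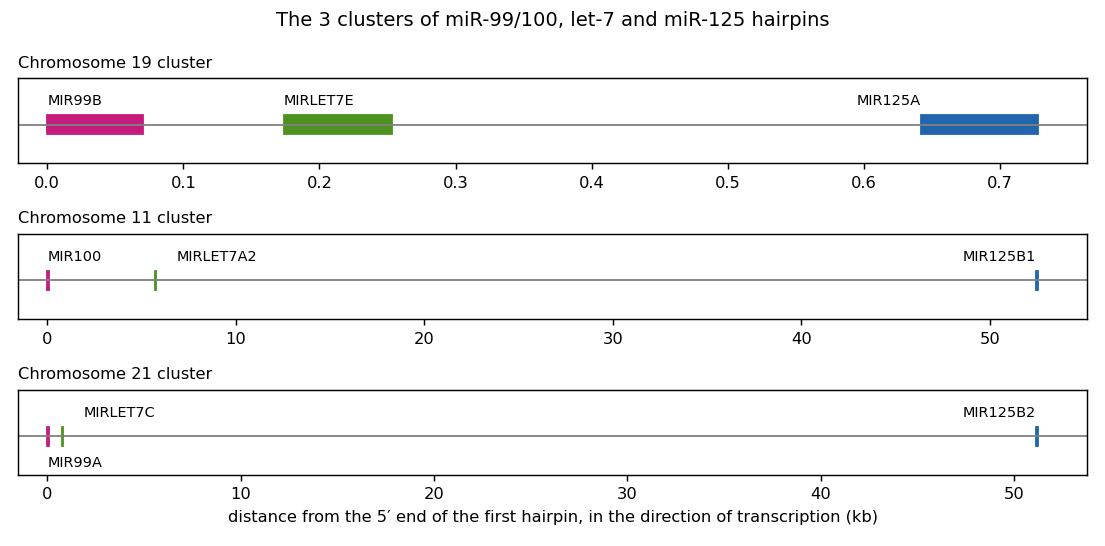
Map of the 3 clusters, with the distance from the 5′ end of the first hairpin in kb on the x axis of each panel, in the direction of transcription. Boxes are hairpins to scale (pink for miR-99 and miR-100, green for let-7, blue for miR-125), and the scale of the chromosome 19 panel (0.728 kb in all) is far smaller than that of the others (52.6 and 51.2 kb).

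The libraries held between 28688 and 66345 miRNA reads, and every EV_soft library had more than every EV_stiff library. Levels are given as CPM, in which each count is scaled to a common library total after edgeR's TMM correction, and a count of 0 allows up to 3 reads, or 44.8 to 108 CPM depending on the library. This limit and the Wilson and exact intervals on reads cover counting error only. The intervals of log2 fold changes and log2 ratios come from the fits and also take in the spread between libraries. A miRNA was called when its log2 fold change, EV_stiff over EV_soft, was above 0.58 in size and its adjusted p was at most 0.05 in edgeR's quasi-likelihood test over the 105 miRNAs that passed the filter on low counts. In this test 18.1% of miRNAs were called, 7.62% as lower and 10.5% as higher in EV_stiff, a split of 11 higher and 8 lower that became 8 and 11 when the library size alone was used for scaling. With the same size given to every library, a scaling that compares raw reads, the median log2 fold change of all miRNAs moved from -0.04 to -0.89, so changes here are shares of the miRNA reads, not amounts per vesicle or cell. Squamous epithelial miRNAs were present, with miR-205-5p at 923 to 2078 reads per library, and the summed level of a list of 5 such miRNAs was 53176 to 64051 CPM in EV_soft and 49229 to 50390 CPM in EV_stiff. The list did not move one way, since miR-200c-3p was called as lower (log2 fold change -1.10), while miR-205-5p (0.20), miR-203a-3p (1.21) and miR-31-5p (-0.80) were not called. The last of the list, miR-141-3p, did not pass the filter, and was at 286 to 394 CPM in EV_soft and 71.9 to 200 CPM in EV_stiff. For miR-203a-3p, EV_soft replicate 2 had 6 reads, against 61 and 96 in EV_soft replicates 1 and 3. All 4 measured miRNAs of a list of 5 stromal ones together stayed at or below 180 CPM in every library, and miR-199a-5p and miR-214-3p had at most 1 read in any library. The 4 measured miRNAs of a list of 6 from blood and serum summed to 3224 to 5892 CPM in EV_soft and 6828 to 9489 CPM in EV_stiff, most of it miR-122-5p, while the leukocyte miRNA miR-223-3p had at most 1 read. Of this list only miR-122-5p was called, as higher (log2 fold change 1.03). In contrast, miR-486-5p was not called (0.10), and miR-451a, at 0 to 8 reads per library, did not pass the filter. The part of these miRNAs in the results was not tested.

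Of the 5 members that passed the filter, 1 was called, hsa-miR-125a-5p, which was lower in EV_stiff. This is a share near the 18.1% of all miRNAs that were called. In reads, miR-125a-5p had 96, 196 and 208 in the EV_soft libraries and 36, 36 and 40 in the EV_stiff libraries. In CPM it was at 2109, 4832 and 3105 in EV_soft and at 1199, 1294 and 1442 in EV_stiff. The groups did not overlap, and the EV_soft libraries differed among themselves far more than the EV_stiff libraries did. The mean fell from 3349 ± 1378 CPM (SD, n = 3) to 1312 ± 122 CPM (SD, n = 3), which was 2.54-fold lower in the fit (log2 fold change -1.35, 95% interval -2.01 to -0.69, adjusted p = 0.00849). It ranked 3 of 105 by the size of its fold change and 40 of 105 by its mean level. Leaving out each library in turn gave log2 fold changes between -1.59 and -1.0, and the call was lost without EV_stiff replicate 1 (adjusted p = 0.0612). Over 18 alternatives the adjusted p was 3.04e-08 to 0.0612. The lowest came from giving every library the same size, which compares raw reads, and the other 17 gave 2.38e-06 to 0.0612.

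**Figure D2:**
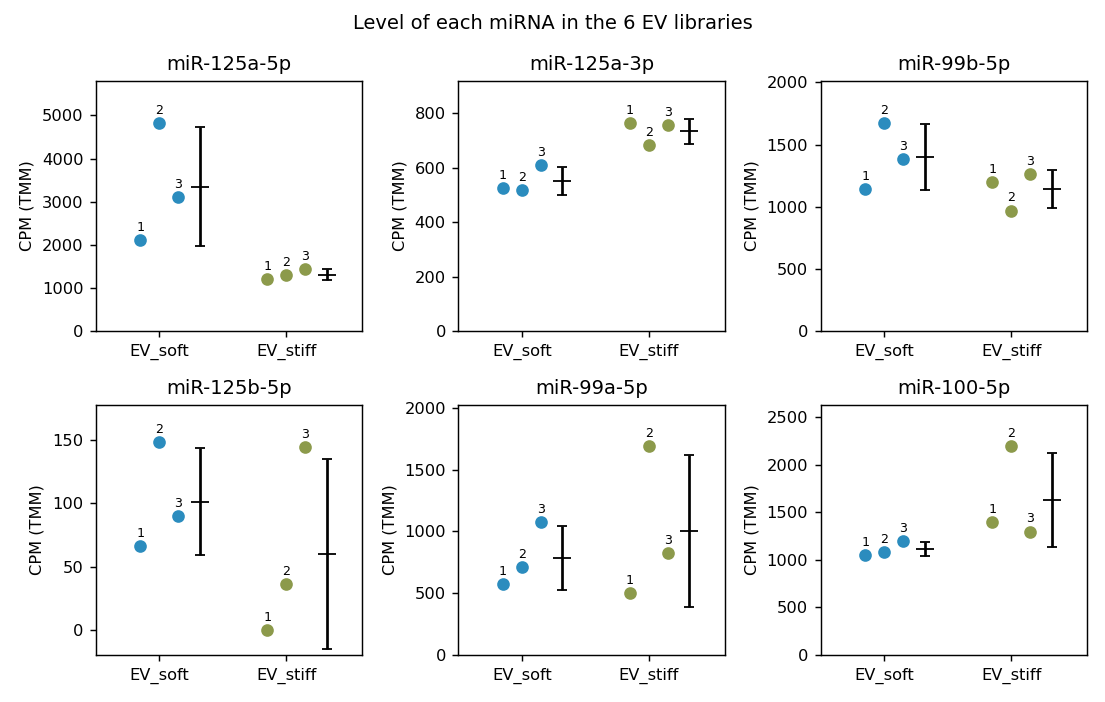
CPM of the 6 members (y axis of each panel, with a scale of its own) in the EV_soft and EV_stiff libraries, with the replicate number above each point and the mean and SD of the 3 libraries in black. The levels of miR-125a-5p, miR-125a-3p and miR-100-5p do not overlap between the groups, with miR-125a-5p lower and the other two higher in EV_stiff, and the SD bar of miR-125b-5p in EV_stiff reaches below 0.

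The other arm of the same hairpin, hsa-miR-125a-3p, was not called. It had 24, 21 and 41 reads in EV_soft and 23, 19 and 21 in EV_stiff. Its level was 552 ± 51.9 CPM (SD, n = 3) in EV_soft and 735 ± 45.6 CPM (SD, n = 3) in EV_stiff, with a log2 fold change of 0.40 (95% interval -0.22 to 1.03, adjusted p = 0.314). All 3 EV_stiff libraries were above all 3 EV_soft libraries, which was so, in either direction, for 3 of the 5 members tested and for 47.6% of all miRNAs tested.

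The ratio of the arms compares counts in the same library, so it does not depend on how libraries are scaled to each other. For every read of miR-125a-3p there were 4.0, 9.33 and 5.07 reads of miR-125a-5p in the EV_soft libraries and 1.57, 1.89 and 1.90 in the EV_stiff libraries. Reads of the 5p arm outnumbered those of the 3p arm in all 6 libraries, and by less in every EV_stiff library than in any EV_soft library. On the log2 scale, with 0.5 read added to each count, the ratio was 2.50 ± 0.62 (SD, n = 3) in EV_soft and 0.82 ± 0.16 (SD, n = 3) in EV_stiff, a difference of -1.68 (95% interval -2.45 to -0.91). The exact permutation test gave a two-sided p of 0.1, the smallest that 3 libraries against 3 allow, and 0.225 adjusted over the 9 pairs compared. With limma on the ratios of 105 miRNAs to miR-125a-3p the adjusted p was 0.0156, and it was between 0.0231 and 0.0403 when each library was left out in turn. With miR-125a-5p as the reference of the limma fit in place of miR-125a-3p, it was 0.00462, and 0.00242 to 0.0372 without one library. In that fit the called miR-125a-5p was in all 105 ratios, so its own fall moved them together. The adjusted p from it is therefore no separate support for a change between the arms. In the same way miR-125a-3p was in all 105 ratios of the first limma fit. There the ratio of miR-99b-5p to miR-125a-3p, which is not among the 9 pairs, also passed (log2 difference -0.70, adjusted p = 0.0397 from limma). Passing in that fit was thus not particular to miR-125a-5p, and the share of all its ratios that passed is not given here.

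The seed mate of miR-125a-5p, hsa-miR-125b-5p, was near the limit of detection. It had 3, 6 and 6 reads in EV_soft and 0, 1 and 4 reads in EV_stiff, which were too few to pass the filter. These 15 and 5 reads give a ratio of EV_stiff to EV_soft of 0.596, with an exact 95% counting interval from 0.169 to 1.73, which holds both a lower and a somewhat higher level in EV_stiff. Reads of miR-125a-5p made up 97.0%, 97.0% and 97.2% of the reads with the miR-125 seed in EV_soft and 100%, 97.3% and 90.9% in EV_stiff. Almost all reads with this seed were thus of miR-125a-5p in both groups. The lowest of the 6 Wilson 95% limits was 78.8%, in EV_stiff replicate 3. The log2 ratio of miR-125a-5p to miR-125b-5p was 4.90 ± 0.11 (SD, n = 3) in EV_soft and 4.65 ± 1.51 (SD, n = 3) in EV_stiff. The difference of -0.25 had a 95% interval from -2.31 to 1.82 (exact permutation test, two-sided p = 0.7).

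Of the 3p arms of the miR-125b hairpins, miR-125b-1-3p, which comes from chromosome 11 alone, had 2, 0 and 4 reads in EV_soft and 3, 6 and 6 in EV_stiff. Its level was 43.9, 0 and 59.7 CPM in EV_soft, where the count of 0 allows up to 74.0 CPM, and 99.9, 216 and 216 CPM in EV_stiff. The pooled reads gave a ratio of EV_stiff to EV_soft of 4.47, with an exact 95% counting interval from 1.64 to 14.1. Among the 21 reads of miR-125b-1-3p and miR-125b-5p in EV_soft, 28.6% were of the 3p arm (exact 95% interval 11.3% to 52.2%), and among the 20 in EV_stiff, 75.0% were (50.9% to 91.3%). These intervals pool the libraries of a group and compare the libraries, not the conditions. The arm from chromosome 21, miR-125b-2-3p, had 1 read in all 6 libraries together.

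None of the neighbours of miR-125a on chromosome 19 was called. The first of them, hsa-miR-99b-5p, had 52, 68 and 93 reads in EV_soft and 36, 27 and 35 in EV_stiff, or 1402 ± 267 CPM (SD, n = 3) and 1144 ± 153 CPM (SD, n = 3). These levels overlapped between the groups, with a log2 fold change of -0.29 (95% interval -0.84 to 0.26, adjusted p = 0.413). The second, let-7e-5p, a let-7 family member from between the other hairpins, had 48, 46 and 72 reads in EV_soft and 47, 50 and 30 in EV_stiff, with a log2 fold change of 0.45 (95% interval -0.11 to 1.00, adjusted p = 0.201). Its mature sequence is nearly identical to that of let-7a-5p, which had 1332 to 2770 reads per library. Some reads counted as let-7e-5p could therefore belong to let-7a-5p. For miR-99b-3p, the other arm of the miR-99b hairpin, the values were 22, 20 and 29 reads against 7, 19 and 14, with a log2 fold change of 0.01 (95% interval -0.89 to 0.90). The 3p arm of let-7e had 1 read in all.

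Within a library, miR-125a-5p was compared with miR-99b-5p and let-7e-5p. There were 1.85, 2.88 and 2.24 reads of miR-125a-5p for each read of miR-99b-5p in EV_soft, and 1.00, 1.33 and 1.14 in EV_stiff. The log2 ratio differed by -0.99 (95% interval -1.65 to -0.32), with an exact permutation p of 0.1 and an adjusted p of 0.0499 from limma over 105 ratios. That call was kept without EV_soft replicate 1 and without EV_stiff replicate 2, and lost in each of the other 4 fits that left out a library, where the adjusted p reached 0.177. It was also lost with miR-125a-5p as the reference of the limma fit (adjusted p = 0.0811). Relative to let-7e-5p, miR-125a-5p stood at 2.00, 4.26 and 2.89 in EV_soft and at 0.766, 0.720 and 1.33 in EV_stiff. In EV_soft it outnumbered let-7e-5p in all 3 libraries and in EV_stiff in 1 of them. This log2 ratio differed by -1.68 (95% interval -2.51 to -0.85), with an exact permutation p of 0.1 and an adjusted p of 0.0171 from limma. The limma call was lost without EV_soft replicate 2, without EV_stiff replicate 1 or without EV_stiff replicate 2 (adjusted p up to 0.0968). With miR-125a-5p as the reference the adjusted p was 0.00462, and it stayed at or below 0.0395 without each library. Here too the called miR-125a-5p was in all 105 ratios, so this is no separate support for a change against let-7e-5p. The share of all ratios to miR-99b-5p or to let-7e-5p that passed is not given here.

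**Figure D3:**
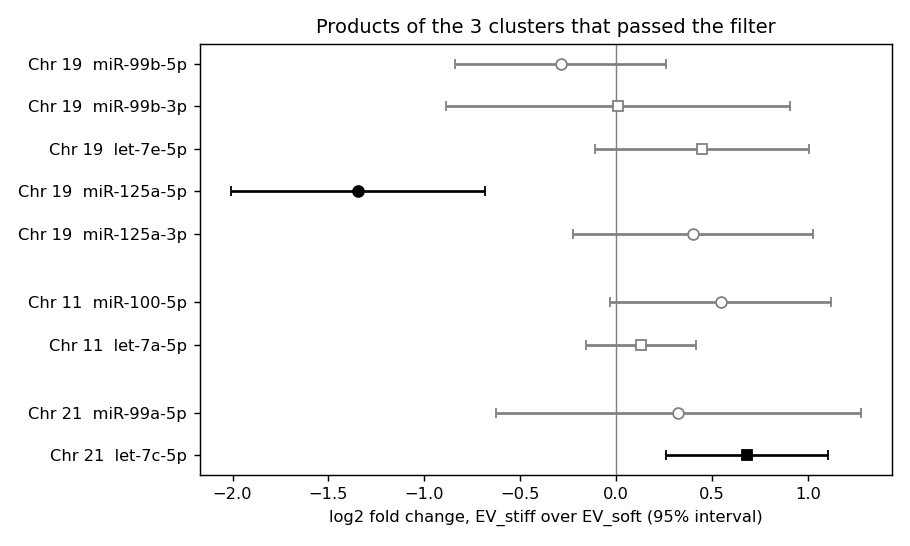
Log2 fold change, EV_stiff over EV_soft, of the 9 products of the 3 clusters that passed the filter, with 95% intervals from edgeR's quasi-likelihood fit. Circles are members and squares are other products of the clusters, and filled symbols mark the called miRNAs, miR-125a-5p at -1.35 and let-7c-5p at 0.68.

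The members on chromosomes 11 and 21 were not called in either direction. The chromosome 11 member, hsa-miR-100-5p, had 48, 44 and 80 reads in EV_soft and 42, 61 and 36 in EV_stiff. Its level was 1111 ± 73.5 CPM (SD, n = 3) in EV_soft and 1630 ± 490 CPM (SD, n = 3) in EV_stiff, with no overlap and a log2 fold change of 0.55 (95% interval -0.03 to 1.12, adjusted p = 0.139). The highest of these levels, 2192 CPM, was in EV_stiff replicate 2, and without it the log2 fold change was 0.29. The chromosome 21 member, hsa-miR-99a-5p, had 26, 29 and 72 reads in EV_soft and 15, 47 and 23 in EV_stiff, and its level ranged from 500 CPM in EV_stiff replicate 1 to 1689 CPM in EV_stiff replicate 2. This spread was wider than the difference between the groups, with a log2 fold change of 0.32 (95% interval -0.63 to 1.28, adjusted p = 0.603) that became -0.26 without EV_stiff replicate 2.

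Of the 11 other mature products of the clusters looked for, 7 were in the table and 4 passed the filter, of which 1 was called. This was let-7c-5p, which is made from the chromosome 21 cluster beside miR-99a. It had 195, 274 and 272 reads in EV_soft and 224, 238 and 224 in EV_stiff, out of smaller libraries. Its level was 5033 ± 1495 CPM (SD, n = 3) in EV_soft and 8030 ± 548 CPM (SD, n = 3) in EV_stiff, 1.6-fold higher (log2 fold change 0.68, 95% interval 0.26 to 1.10, adjusted p = 0.0245). The call was lost without EV_soft replicate 1, EV_soft replicate 3, EV_stiff replicate 1 or EV_stiff replicate 3, with log2 fold changes between 0.54 and 0.71 there. Compared by raw reads, let-7c-5p had a log2 fold change of -0.11, above the median of -0.89 under that scaling. The most abundant product, let-7a-5p, which the chromosome 11 cluster makes together with hairpins on chromosomes 9 and 22, had 1332 to 2770 reads per library and a log2 fold change of 0.13 (95% interval -0.16 to 0.42, adjusted p = 0.468). Its mature sequence is nearly identical to those of let-7c-5p and let-7e-5p, so the counting could have divided reads among them. Reads of another let-7 family member, let-7b-5p, could also have been counted as let-7c-5p. Its level was far higher, from 123165 CPM in EV_soft replicate 2 to 165467 CPM in EV_stiff replicate 3, and its sequence was not compared here. The median log2 fold change of the 5 members tested was 0.32 and that of the 4 other products was 0.29, beside -0.04 over all 105 miRNAs.

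Among the 3 members with the miR-99 seed, none of the ratios passed a test with all libraries. The log2 ratio of miR-99b-5p to miR-100-5p was 0.32 ± 0.27 (SD, n = 3) in EV_soft and -0.47 ± 0.60 (SD, n = 3) in EV_stiff. It was above 0 in the EV_soft libraries and below 0 in the EV_stiff libraries, so miR-99b-5p was the more numerous of the pair in every EV_soft library and miR-100-5p in every EV_stiff library. The difference was -0.79 (95% interval -1.61 to 0.02, exact permutation test, two-sided p = 0.1, adjusted p = 0.136 from limma over 105 ratios). The ratio of miR-99b-5p to miR-99a-5p differed by -0.51 (95% interval -1.83 to 0.81) and that of miR-99a-5p to miR-100-5p by -0.28 (95% interval -1.10 to 0.54), and both overlapped between the groups. The remaining pairs set miR-125b-5p against its chromosome 11 and 21 neighbours. The differences were -1.53 against miR-100-5p (95% interval -2.95 to -0.11) and -1.25 against miR-99a-5p (95% interval -2.57 to 0.07), on the few reads of miR-125b-5p, with an exact permutation p of 0.3 for each and an adjusted p of 0.111 and 0.585 from limma. With miR-125b-5p as the reference the adjusted p was 0.688 for both. The difference against miR-100-5p passed in 3 of 6 limma fits that left out a library with miR-100-5p as the reference (EV_soft replicate 1, EV_soft replicate 3 or EV_stiff replicate 3, adjusted p down to 0.0024) and in 1 of 6 with miR-125b-5p as the reference (EV_stiff replicate 3).

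**Figure D4:**
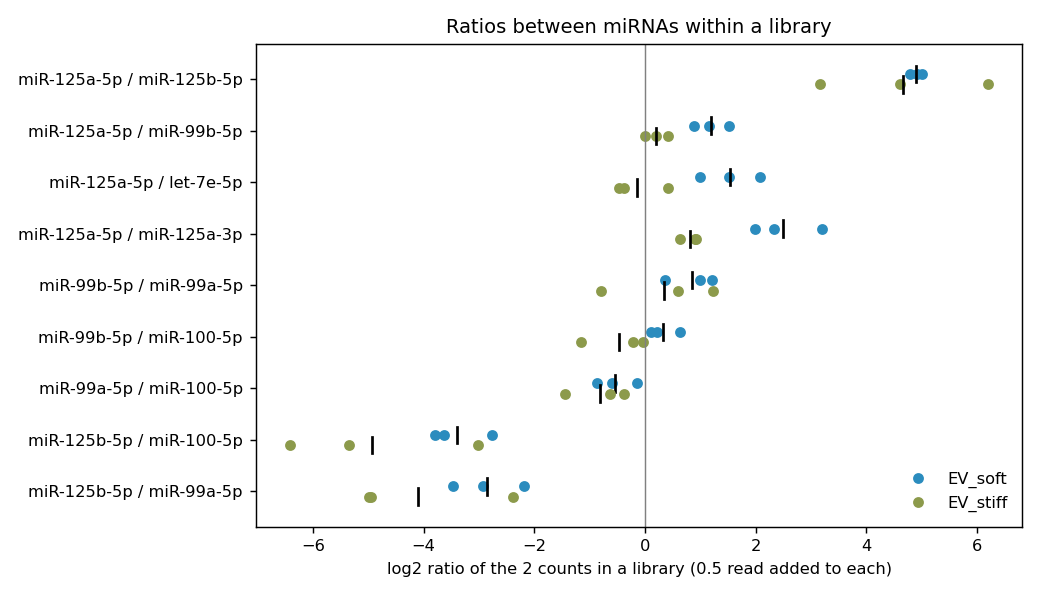
Log2 ratio of the counts of 2 miRNAs in the same library (x axis, 0.5 read added to each count) for the 9 pairs compared, with one point per library and a black line at the mean of each group. For miR-125a-5p over miR-99b-5p, let-7e-5p and miR-125a-3p, and for miR-99b-5p over miR-100-5p, the EV_soft points lie to the right of the EV_stiff points without overlap.

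The order of the members by level differed between the groups. The mature miRNAs are 22 to 24 bases long, so CPM were compared without a correction for length. How well each miRNA entered a library was not measured, so the order is one of reads and not of amounts. In EV_soft the order was miR-125a-5p, miR-99b-5p, miR-100-5p (1111 CPM), miR-99a-5p (787 CPM), miR-125a-3p (552 CPM) and miR-125b-5p (101 CPM). This order held within each of the 3 libraries. Across the libraries, the lowest level of miR-125a-5p was above the highest of miR-99b-5p and all levels of miR-125b-5p were below those of the others, while the ranges of miR-99b-5p and miR-100-5p, of miR-100-5p and miR-99a-5p, and of miR-99a-5p and miR-125a-3p overlapped. In EV_stiff the order was miR-100-5p, miR-125a-5p, miR-99b-5p, miR-99a-5p (1006 CPM), miR-125a-3p (735 CPM) and miR-125b-5p (60.0 CPM). There the range of each member across the libraries overlapped with that of the next, other than miR-125b-5p, which stayed below the rest.

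The 6 members together were a small part of the miRNA reads, with 0.543%, 0.928% and 0.754% of the library in EV_soft and 0.495%, 0.666% and 0.535% in EV_stiff, and the groups overlapped. Of the reads of the 5 members from 5p arms, the chromosome 19 pair of miR-125a-5p and miR-99b-5p held 65.8%, 77.0% and 65.6% in EV_soft, out of 225, 343 and 459 reads. In EV_stiff it held 55.8%, 36.6% and 54.3%, out of 129, 172 and 138 reads. The mean was 69.4% ± 6.52 (SD, n = 3) in EV_soft and 48.9% ± 10.7 (SD, n = 3) in EV_stiff. However, the Wilson 95% intervals of EV_soft replicates 1 (59.4% to 71.7%) and 3 (61.1% to 69.8%) each overlapped with those of EV_stiff replicates 1 (47.2% to 64.1%) and 3 (46.0% to 62.4%). No test is given for these shares, which are sums over chosen members and include the called miR-125a-5p. Taken alone, as shares of the reads of all 6 members, miR-99b-5p, miR-99a-5p and miR-125b-5p overlapped between the groups.

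**Figure D5:**
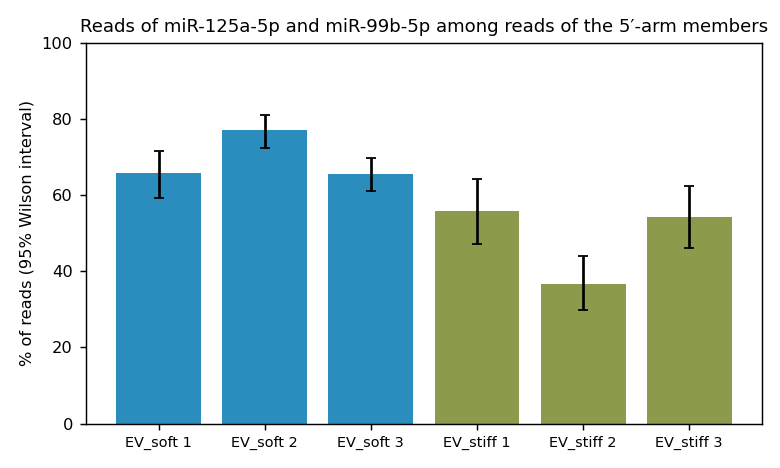
Share of reads from miR-125a-5p and miR-99b-5p, both from the chromosome 19 cluster, among the reads of miR-125a-5p, miR-99b-5p, miR-125b-5p, miR-99a-5p and miR-100-5p in each library (y axis, %). Bars are libraries and lines are Wilson 95% intervals, and the EV_soft bars (65.6% to 77.0%) stand above the EV_stiff bars (36.6% to 55.8%).

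Across the 6 libraries, the tested miRNAs outside the members whose log2 CPM followed miR-125a-5p most closely were miR-200b-3p (Pearson's r = 0.95), miR-196a-5p (r = 0.92) and miR-181a-5p (r = 0.90). The 6 points share the difference between the groups and the scaling, so these values are a description. The log2 fold changes of these 3 were -0.73, -0.82 and -1.26, of which the first and the last were called and miR-196a-5p was not (adjusted p = 0.0572). For comparison, the r of miR-125a-5p with its cluster neighbour miR-99b-5p was 0.84. The pattern of miR-125b-5p was not ranked, since it did not pass the filter.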

How the data were processed

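Per the labels and the study's methods, EV RNA was made into libraries with the NEBNext small RNA kit with size selection and 15 PCR cycles. Quality control was done in exceRpt. Features followed RefSeq, and the authors deposited the raw read count of each miRNA. The submitters' processing notes name hg38. The aligner, its settings and any removal of duplicates are not given in the sources used here, so reads of near-identical miRNAs may have been divided.

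The counts were fitted with edgeR 4.0.16, with DESeq2 1.42.0 and limma 3.58.1 as alternatives (R 4.3.3). Of 471 names, 105 were kept by filterByExpr, and all names were used for levels. TMM scaling, the quasi-likelihood test without a replicate block and Benjamini-Hochberg adjustment over the 105 followed. Ratios within a library used counts plus 0.5 and exact permutation tests (scipy 1.17.1), with limma on the ratios of 105 miRNAs beside them. Their 95% intervals are from limma. The procedure was tested on simulated data. The smallest chi-square per degree of freedom between libraries was 3.40, so none was taken for a copy. Alternatives were other tests, scalings and filters, the most abundant miRNA left out, the block, another pseudocount, other sums and each library left out. In the limma fit of ratios the second miRNA of a pair was the reference. Leaving out a library in it, or taking the first as the reference, was added after seeing the data. Permutation tests planned for the summed shares are not printed. The members, lists and tests were chosen with earlier results of these data known. The named miRNAs are the members, the other products of the clusters, the miRNAs with a member's seed, and the 3 with patterns most like miR-125a-5p. The let-7 family member let-7b-5p was added for its high level. Marker lists were squamous (5), stromal (5), and blood and serum (6). Sequences were matched by name in RefSeq for all 6 members.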

Additional observations from a re-analysis of the deposited data

How the results depend on the processing

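Over 18 alternatives the number of miRNAs called was 13 to 27, or 57, all lower in EV_stiff, when every library was given the same size. That scaling shifted the median log2 fold change of all miRNAs from -0.04 to -0.89. The number of members called was then 2, miR-125a-5p at -2.15 and miR-99b-5p at -1.12, and without one library it was 0 to 1. Relative to that shift miR-125a-5p remained the lowest member, and the signs of miR-125a-3p (-0.45), miR-99a-5p (-0.58), miR-100-5p (-0.31), let-7a-5p (-0.68, adjusted p = 0.0396), let-7c-5p (-0.11), let-7e-5p (-0.39) and miR-99b-3p (-0.82) turned with it. For miR-99a-5p the sign also turned without EV_stiff replicate 2 (-0.26). For miR-99b-3p, at 0.01 in the fit reported, it was -0.069 with library size only, -0.065 with no filter, -0.097 with limma-voom, -0.19 with limma on log2 of RPM plus 1, -0.043 with the replicate block, and -0.34 to 0.33 without one library, with -0.055 without EV_soft replicate 3 and -0.033 without EV_stiff replicate 3. With at least 10 counts in every library it was not tested. The call of let-7c-5p was also lost with library size only (0.60, adjusted p = 0.0555) and with limma on log2 of RPM plus 1 (0.64, adjusted p = 0.0508), within adjusted p of 7.93e-06 to 0.735 over its 18 alternatives. The highest came from the same size for every library, and the other 17 reached 0.0996.

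With limma in place of the permutation test, the calls were miR-125a-5p to miR-99b-5p (-0.99), to let-7e-5p (-1.68) and to miR-125a-3p (-1.68), of which the first was lost with miR-125a-5p as the reference of the fit (adjusted p = 0.0811). Without one library these were -1.14 to -0.82, -1.96 to -1.40 and -1.94 to -1.34. Ratios that turned sign without one library were miR-125a-5p to miR-125b-5p (-1.01 to 0.50), miR-99b-5p to miR-99a-5p (-0.95 to 0.059) and miR-99a-5p to miR-100-5p (-0.51 to 0.035), and the share of miR-125a in the miR-125 reads moved from -2.96 to 1.58 percentage points. The ratio of miR-125b-5p to miR-100-5p was -2.48 to -0.79 and that to miR-99a-5p -2.11 to -0.81. The latter passed with limma without EV_stiff replicate 3, with miR-125b-5p as the reference (adjusted p = 0.0482). The causes were not tested.

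No sign of pairing by replicate number was seen. Same-numbered libraries had correlations of -0.13 to 0.13 in their deviations from the group means, with 2 of 6 libraries closest to their own number. With so few libraries this check cannot exclude a pairing, and the labels do not state one. With the replicate block 16 miRNAs were called, of which 1 was a member, miR-125a-5p (log2 fold change -1.28). The counts of 0 to 6 reads limit miR-125b-5p and its 3p arms.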
